A study of Danio rerio with 6 samples.

Results

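Somitic muscle genes encode the contractile filaments of the trunk muscle and the proteins that serve them with calcium, nerve input and energy. Their transcripts were measured in whole zebrafish embryos mutant for hand2 (hanS6 allele) and in wild-type siblings from the same heterozygous crosses, all at 19 hours post fertilization (hpf). The gene hand2 encodes a basic helix-loop-helix transcription factor of the developing heart, pharyngeal arches and fins. Mutants were sorted by the expression of a transgene, Tg(myl7:egfp), in which the promoter of the heart gene myl7 drives a green fluorescent protein. All embryos were grown at 28.5 °C. The sibling group was chosen by phenotype and can hold heterozygotes as well as homozygous wild-type embryos. There were 3 arrays of mutants and 3 of siblings, each of RNA pooled from 10 to 25 embryos, and the values are MAS5 signals, a linear brightness per probe set. The genes were chosen by name: 60 symbols were listed, of which 38 had a probe set of their own (48 probe sets in all, out of 15617 on the array). 1 of them, tnnc2, is called tnnc2.2 in the RefSeq gene table and was matched through that synonym. The fast troponin T gene tnnt3b fell below the intensity filter, which left 37 genes for testing among 7356 genes and 11626 probe sets.

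The sarcomere is the repeating contractile unit of striated muscle, in which myosin thick filaments pull on actin thin filaments when calcium binds troponin. In the zebrafish somite, slow fibres arise from adaxial cells beside the notochord and move to the surface, while most of the remaining somite cells become fast fibres, and each fibre type uses its own myosin and troponin genes. At the stage sampled the front somites already hold differentiated fibres while new somites are still being added at the tail.

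The 22 listed genes without a probe set of their own were not analysed here. They were mylpfb, tnni2b.2, myhz1.1 and myhz2 of the fast filament genes, smyhc2, tnnt1 and tnnc1b of the slow ones, acta1b, tpm2, myhb, ttn.1, myom1b, smyd1b, klhl31, klhl41a, ryr1b, casq1a, stac3, chrng, chrnd, apobec2a and apobec2b. A single probe set was annotated to 6 myosin heavy chain genes at once, 2 of them listed (myhz1.1 and myhz2), and is described without a gene name of its own.

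The signal of hand2 checked the labels: it was 52.8, 50.9 and 45.1 in mutant replicates 1, 2 and 3, against 349, 448 and 292 in sibling replicates 1, 2 and 3. The groups did not overlap (limma, adjusted p = 0.0051). Median signals of the 6 arrays ran from 152 to 177. Background was read from 17 Tag controls, which match no zebrafish transcript: the highest of them on each array lay between 57.0 and 122.3. All 3 mutants were at this background for hand2, so its fitted log2 difference of -2.51 ± 0.21, which ran from -2.83 (offset 1) to -1.89 (offset 64), is no exact size. Against the controls hand2 was at least 4.35-fold lower in mutants on the log2(signal + 16) scale.

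Most of the muscle genes had higher fitted values in the mutant, and none passed the test. Of the 37 tested, 32 were higher and 5 lower, with a median log2 difference of 0.26 on the log2(signal + 16) scale, against a median of 0.0011 and 50.2% higher among all 7356 genes. At the threshold of an adjusted p under 0.05 (limma, Benjamini-Hochberg over 11626 probe sets) 0 of the 37 passed, and the background was 0.0086% of probe sets, which is hand2 alone. At an unadjusted p under 0.05, 5 were higher (tnni2b.1, neb, klhl41b, desma and chrna1) and 0 lower. That is 13.5% of the tested muscle genes, against 1.82% of all genes higher and 1.16% lower at that level. With the replicate number as a block the count was 13, or 35.1%, against 4.38% of all genes higher and 3.05% lower, and the smallest adjusted p was 0.57. The unblocked count changed with single arrays left out. It was 1 without mutant replicate 1, mutant replicate 2 or sibling replicate 3, 2 without sibling replicate 2, 3 without sibling replicate 1 and 18 without mutant replicate 3. The share of all genes was not counted with arrays left out, so these changes cannot be read as particular to the muscle genes. The number with higher fitted values was 21 without mutant replicate 1, where the median was 0.061. The median was 0.41 without mutant replicate 3.

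**Figure D1:**
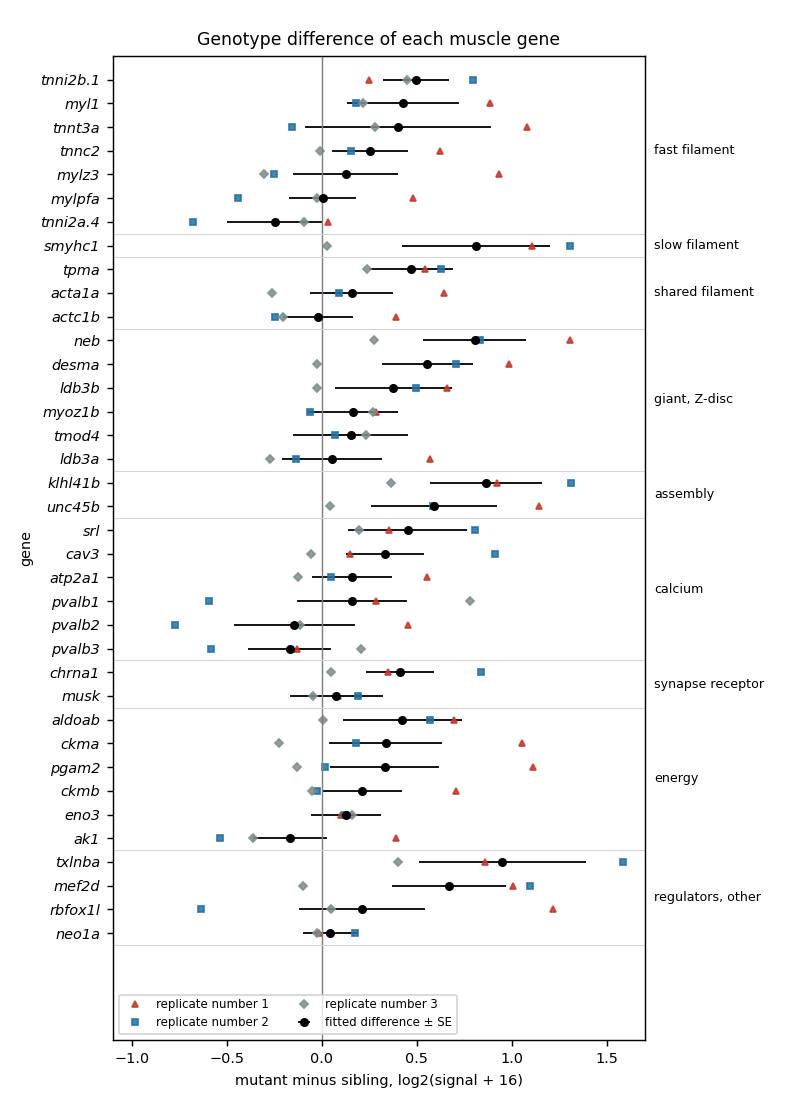
The horizontal axis is the mutant minus sibling difference in log2(signal + 16), and each row is a gene, grouped by role. Black points with bars are fitted differences ± standard error over 6 arrays, and coloured points are the differences at replicate numbers 1, 2 and 3. Triangles (number 1) lie right of 0 for 35 of 37 genes, and diamonds (number 3) for 18.

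Among fast filament genes, 6 of 7 had higher fitted values, with a median of 0.26 and a range from -0.25 to 0.50. The fast troponin I gene tnni2b.1, whose product blocks contraction at rest, had signals of 3207, 3829 and 2687 in mutant replicates 1 to 3, against 2698, 2201 and 1968 in siblings. Mutant replicate 3 lay just below sibling replicate 1, and the mutant array was the brighter one at every replicate number. The fitted difference was 0.50 ± 0.17 (standard error; limma, adjusted p = 0.942). The essential light chain gene myl1, whose protein braces the lever arm of fast myosin, read 4648, 3285 and 1985 in mutants and 2508, 2898 and 1705 in siblings. Mutants 1 and 2 were above all siblings while mutant 3 was not (0.43 ± 0.30, adjusted p = 0.942, limma). The difference of myl1 was 0.14 without mutant replicate 1, 0.21 without sibling replicate 3 and 0.75 without mutant replicate 3. The calcium sensor of fast fibres, tnnc2, read 4571, 4158 and 2777 in mutants and 2966, 3733 and 2798 in siblings, a difference of 0.26 ± 0.20.

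A second kind of profile in the fast list was a high value on mutant replicate 1 alone. The fast troponin T gene tnnt3a, which ties troponin to tropomyosin, read 553, 220 and 125 in mutants against 253, 247 and 100.3 in siblings. The essential light chain gene mylz3 read 1890, 860 and 842 in mutants against 982, 1027 and 1044 in siblings. In both, the first mutant array stood above all others and the other mutant arrays lay within or below the sibling range. Without that array their log2 differences turned to -0.15 for tnnt3a and -0.25 for mylz3. The regulatory light chain gene of fast myosin, mylpfa, read 3178, 2164 and 2295 in mutants and 2272, 2940 and 2338 in siblings. It differed by 0.0051 ± 0.18, and its other probe set by -0.15. The difference of mylpfa was -0.16 without mutant replicate 1, -0.063 without sibling replicate 1 and -0.043 without sibling replicate 3. The dim fast troponin I gene tnni2a.4 was the lower member of the list (-0.25 ± 0.25), with its highest signal, 155.9, in sibling replicate 2. Its second probe set gave -0.37, which is no exact size, as all 3 mutants and 2 siblings were at background. A further probe set, shared by tnni2a.4 and tnni2a.2, read 113.3, 78.2 and 99.7 in mutants and 99.8, 175.3 and 107.6 in siblings. It differed by -0.32 ± 0.24 (limma, adjusted p = 0.942), and by 0.16, -1.02 and -0.095 at numbers 1, 2 and 3. The untested tnnt3b lay between 36.8 and 55.1 on all 6 arrays, at background in both genotypes.

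A single probe set was shared by 6 myosin heavy chain genes (myha, myhc4, myhz1.1, myhz1.2, myhz1.3 and myhz2), which encode the motor proteins of the thick filament. It read 3336, 2642 and 692 in mutants against 1039, 1035 and 881 in siblings. Mutant replicates 1 and 2 were above every sibling and mutant replicate 3 was the lowest of the 6 arrays. The fitted difference was 0.89 ± 0.47 (limma, adjusted p = 0.942), and which of the 6 genes gave the signal cannot be told apart.

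Of the slow filament genes, smyhc1 alone was tested. It encodes the slow myosin heavy chain that adaxial cells make. Its signal was 2634, 2601 and 828 in mutants, against 1215, 1044 and 813 in siblings. The pattern resembled that of the shared myosin heavy chain probe set, with mutants 1 and 2 far above every sibling and mutant 3 inside the sibling range. Means were 2021 ± 1033 in mutants and 1024 ± 202 in siblings (SD, n = 3 each), and the difference was 0.81 ± 0.39 (limma, adjusted p = 0.942). Without mutant replicate 3 the difference was 1.36 and smyhc1 passed the threshold (limma, adjusted p = 0.033). Without mutant replicate 1 it was 0.53. How many of all probe sets passed without mutant replicate 3 was not counted, so the pass cannot be read as particular to smyhc1.

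Fast and slow genes were set side by side through these values. The fast list had a median of 0.26 where smyhc1 had 0.81, a gap of -0.56 for fast minus slow. By replicate number the fast median was 0.62, -0.16 and -0.011, and the difference of smyhc1 was 1.11, 1.30 and 0.026. The gap was thus widest at number 2 (-1.46), smaller at number 1 (-0.48) and near 0 at number 3 (-0.037). Without mutant replicate 1 the fast median was -0.15. With the 3 parvalbumin genes of fast fibres counted in, it was 0.14. The slow side rests on 1 gene, so the gap is a description of smyhc1 against 7 fast genes. It leaves out the probe set shared by tnni2a.4 and tnni2a.2, which differed by -0.32. It also leaves out the shared myosin heavy chain probe set, 2 of whose 6 genes are on the fast list. That probe set differed by 0.89, and by 1.67, 1.34 and -0.34 at numbers 1, 2 and 3. Its fitted value was nearer to that of smyhc1 than to the fast median, so the gap cannot be read as one between fibre types.

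**Figure D2:**
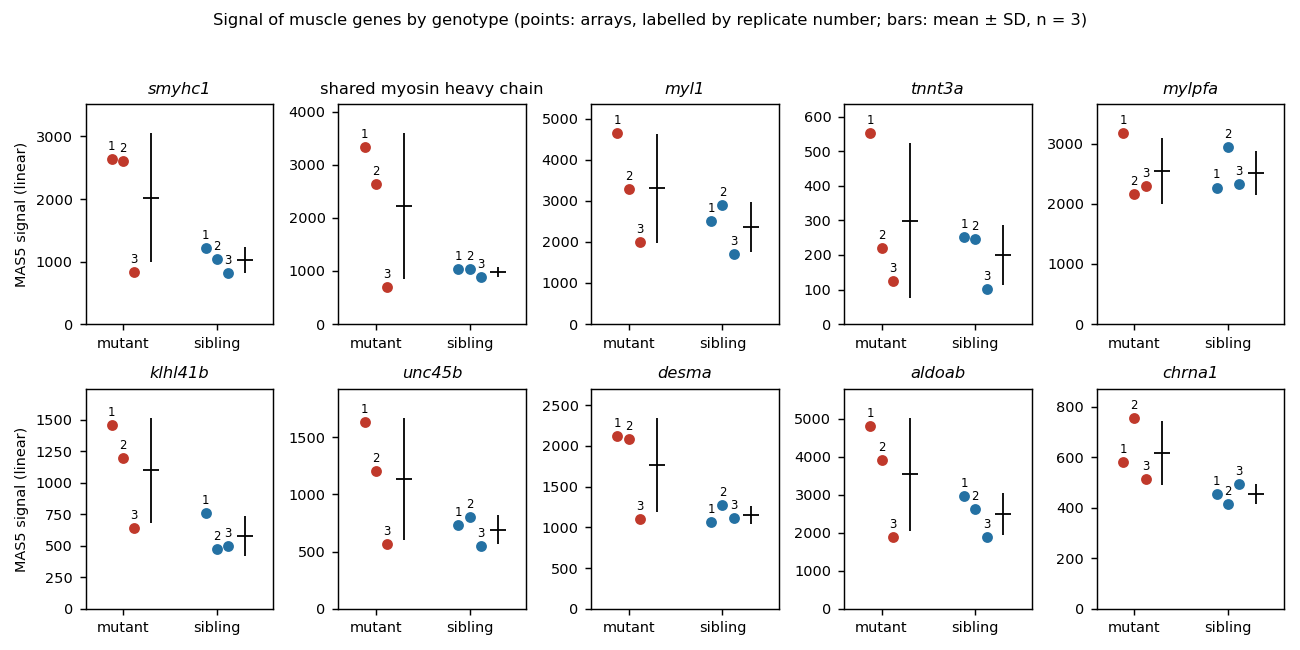
Linear MAS5 signal (vertical axes, from 0) of 9 muscle genes and of the probe set shared by 6 myosin heavy chain genes, for mutants (left) and siblings (right). Points are arrays with their replicate numbers, and bars are mean ± SD (n = 3). Mutants 1 and 2 exceed all siblings for smyhc1 and the shared probe set, and all 3 mutants do so for chrna1.

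Of the actins and tropomyosin of the thin filament, the fitted value was higher for 2 of 3 tested (median 0.16). The actin gene actc1b, the brightest member, read 13609, 12473 and 9624 in mutants and 10375, 14801 and 11103 in siblings (-0.020 ± 0.18). Its 3 tested probe sets gave differences from -0.020 to 0.31. The 0.31 came from a dim one (31.3 to 103.5), at background on 1 mutant and 2 sibling arrays, and the remaining bright one gave 0.0028. The actin gene acta1a read 6517, 6729 and 4109 in mutants and 4161, 6327 and 4928 in siblings (0.16 ± 0.22). In both genes the groups overlapped widely. Actin coding sequences are very alike, so these probe sets may read more than 1 actin gene. The tropomyosin gene tpma, whose product lies along the actin filament and gates myosin binding, was higher at every replicate number, with 2881, 2566 and 1625 in mutants against 1976, 1655 and 1376 in siblings. Its difference was 0.47 ± 0.22 (limma, adjusted p = 0.942).

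Genes of the giant filaments, Z-disc, thin filament cap and desmin network were higher in 6 of 6, with a median of 0.27. Nebulin, encoded by neb, spans the thin filament. It read 140.1, 136.8 and 68.3 in mutants and 47.2, 69.8 and 53.7 in siblings, and all 3 siblings and mutant replicate 3 were at or below the Tag controls. The fitted difference of 0.80 ± 0.27 (limma, adjusted p = 0.942) is therefore no exact size. Against the controls neb was 1.32-fold higher, which is no strict bound because mutant replicate 3 was also at background. The desmin gene desma, an intermediate filament that links myofibrils at the Z-disc, read 2120, 2082 and 1099 in mutants and 1062, 1272 and 1118 in siblings. Again mutants 1 and 2 were above every sibling and mutant 3 among them (0.56 ± 0.24, limma, adjusted p = 0.942). The Z-disc gene ldb3b read 629, 630 and 278 in mutants and 393, 442 and 283 in siblings (0.38 ± 0.31), and its paralogue ldb3a differed by 0.053 ± 0.26, with the sign turned without mutant replicate 1 (-0.13) or 2 (-0.017) or sibling replicate 1 (-0.025) or 3 (-0.033). The pointed-end cap gene tmod4 read 798, 552 and 396 in mutants and 714, 525 and 335 in siblings. Its difference of 0.15 ± 0.30 turned to -0.098 without mutant replicate 1 and to -0.13 without sibling replicate 3. Siblings were at background for the Z-disc gene myoz1b, for which no fold is given.

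Of 5 listed assembly genes 2 were tested, both with higher fitted values and neither past the test. The kelch-family gene klhl41b, needed for ordered sarcomeres, read 1459, 1199 and 643 in mutants and 762, 474 and 496 in siblings. Mutant replicate 3 lay between the siblings and the mutant was higher at each number, by 0.92, 1.31 and 0.36. Its difference was 0.87 ± 0.30 (limma, adjusted p = 0.942), and with the block it had the smallest adjusted p of the muscle genes (limma, adjusted p = 0.57). The myosin chaperone gene unc45b, required for myosin folding in fibres, read 1629, 1204 and 564 in mutants and 728, 798 and 547 in siblings (0.59 ± 0.33, adjusted p = 0.942, limma). Leaving out mutant replicate 1 gave 0.27 for unc45b, and leaving out mutant replicate 3 gave 1.02. As background, unc45b and desma are also active in heart muscle.

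Calcium genes were split. Of 6 tested, 4 were higher and 2 lower, with a median of 0.16. The sarcoplasmic reticulum pump gene atp2a1, which takes calcium back up after contraction, read 7960, 6759 and 4472 in mutants and 5424, 6527 and 4877 in siblings (0.16 ± 0.21). Its sign turned (-0.018) without mutant replicate 1. The gene srl, for the reticulum calcium-binding protein sarcalumenin, read 1902, 1705 and 868 in mutants and 1486, 967 and 757 in siblings. It was higher at each number (0.45 ± 0.31, adjusted p = 0.942, limma). The difference of srl ran from 0.23 without sibling replicate 3 to 0.80 without mutant replicate 3. The caveolin gene cav3, of the muscle cell membrane, read 536, 608 and 505 in mutants and 483, 315 and 526 in siblings (0.33 ± 0.21). Parvalbumins are soluble calcium buffers of fast fibres. The brightest, pvalb2, read 634, 296 and 713 in mutants and 459, 517 and 772 in siblings, so that its lowest array was the mutant of number 2, where the log2 difference was -0.77. Over all arrays it differed by -0.15 ± 0.32, pvalb3 by -0.17 ± 0.22 and pvalb1 by 0.16 ± 0.29. Both arrays of number 2 were at background for pvalb1 and pvalb3, and both arrays of number 3 for pvalb1.

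At the nerve-muscle synapse, chrna1 was the only tested member whose 3 mutant arrays all lay above the 3 siblings. That is 1 of 37, or 2.70%, and 3.49% of all tested genes were separated in this direction, so the share is near the background. In the other direction it was 0 of 37, against 3.3%. The gene encodes the acetylcholine-binding subunit of the muscle receptor. Its signals were 582, 756 and 512 in mutants and 454, 417 and 494 in siblings, means of 617 ± 126 and 455 ± 39.0 (SD, n = 3 each). The difference was 0.41 ± 0.18 (limma, adjusted p = 0.942). The receptor tyrosine kinase gene musk, which gathers these receptors under the nerve ending, was dim, at 97.0, 91.4 and 55.4 in mutants and 90.5, 78.1 and 57.8 in siblings (0.077 ± 0.24). The sign of musk turned without mutant replicate 1 (-0.046), mutant replicate 2 (-0.0093) or sibling replicate 3 (-0.070).

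Energy genes were higher in 5 of 6, with a median of 0.27. Aldolase, encoded by aldoab, splits fructose bisphosphate in glycolysis. Its signals were 4804, 3915 and 1892 in mutants and 2963, 2633 and 1887 in siblings, with mutants 1 and 2 above all siblings and mutant 3 level with sibling 3 (0.42 ± 0.31, adjusted p = 0.942, limma). The difference of aldoab was 0.15 without mutant replicate 1, 0.24 without sibling replicate 3 and 0.82 without mutant replicate 3. The muscle creatine kinase genes, which restore ATP from phosphocreatine, gave 3040, 2371 and 1233 in mutants against 1454, 2093 and 1445 in siblings for ckma. For ckmb the signals were 2988, 2062 and 1629 in mutants and 1824, 2101 and 1688 in siblings. In both, mutant 1 was the highest array and mutant 3 the lowest (0.34 ± 0.30 for ckma and 0.21 ± 0.21 for ckmb). Mutant 2 was above every sibling for ckma and inside the sibling range for ckmb. The phosphoglycerate mutase gene pgam2 had the shape of ckma, at 349, 205 and 146.5 in mutants and 153.0, 203 and 162.1 in siblings (0.33 ± 0.29). Its mutant 2 was only just above sibling 2. Without mutant replicate 1 these 3 differences were 0.061 for ckma, -0.024 for ckmb and 0.016 for pgam2. The enolase gene eno3 differed by 0.13 ± 0.18. The adenylate kinase gene ak1 had a lower fitted value in mutants, -0.17 ± 0.20.

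Among the regulators and remaining genes, mef2d, a MADS-box transcription factor gene of muscle differentiation, read 962, 1021 and 411 in mutants and 471, 469 and 441 in siblings. The siblings agreed closely, mutants 1 and 2 stood above them and mutant 3 below (0.67 ± 0.30, limma, adjusted p = 0.942). Without mutant replicate 3 it passed, at 1.08 (limma, adjusted p = 0.047), in a fit whose passes over all probe sets were not counted. A second, dimmer mef2d probe set differed by 0.0027. The splicing regulator gene rbfox1l read 870, 283 and 453 in mutants and 365, 449 and 438 in siblings, so mutants held both its highest and its lowest array. Its difference of 0.21 ± 0.33 turned to -0.20 without mutant replicate 1. The netrin receptor family gene neo1a, which is not restricted to muscle, was nearly level: 907, 888 and 761 in mutants and 915, 785 and 776 in siblings (0.045 ± 0.15). For txlnba, at 93.2, 200.1 and 38.5 in mutants and 44.1, 56.0 and 25.2 in siblings, all siblings and mutant replicate 3 were at background. Its fitted value of 0.95 ± 0.44 is no exact size, and against the controls it was 1.13-fold higher, with no strict bound.

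Sarcomere genes and the genes serving them were compared as lists. The 17 tested sarcomere genes (fast, slow, shared and giant or Z-disc) had 15 higher and a median of 0.26. The 14 calcium, receptor and energy genes had 11 higher and a median of 0.18. The medians differed by 0.071, which was less than the spread of either median over the replicate numbers: 0.62, 0.089 and -0.011 for sarcomere genes, and 0.37, 0.087 and -0.049 for the others. Without mutant replicate 1 the median was 0.10 for sarcomere genes and -0.0011 for the others.

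The same values were then read array by array. Mutant replicate 1 was the highest of the 6 arrays for 23 of 37 muscle genes (62.2%), against 15.1% of all tested genes. Each gene was then set against its own mean over the 6 arrays. On mutant replicate 1, 35 of 37 lay above that mean, on mutant replicate 2 29, and on mutant replicate 3 only 5, while 47.7%, 51.1% and 52.2% of all genes did so on these arrays. In siblings the counts were 10, 20 and 4 for replicates 1, 2 and 3, against 50.4%, 52.3% and 48.6% of all genes. Both arrays of number 3 were therefore low for muscle genes, with median log2 deviations of -0.33 in the mutant and -0.32 in the sibling. Mutant replicate 1 stood at 0.48 and mutant replicate 2 at 0.28, and siblings 1 and 2 at -0.12 and 0.019. Mutant replicates 1, 2 and 3 exceeded all 3 siblings for 30, 22 and 4 of the 37 genes, against 25.1%, 31.2% and 17.9% of all genes. By pairs, the mutant was higher for 35, 24 and 18 of the 37 genes at numbers 1, 2 and 3, against 47.1%, 49.6% and 51.1% of all genes. It was higher at all 3 numbers for 13 genes (35.1%, against 14.6%).

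**Figure D3:**
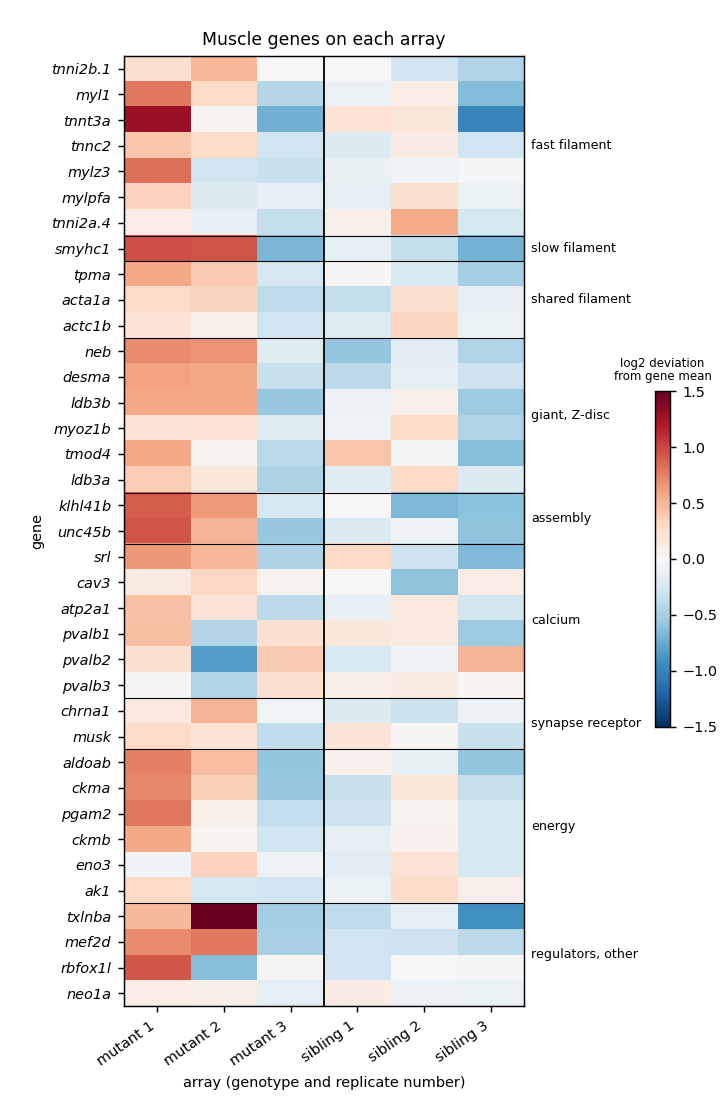
Each row is a tested muscle gene and each column an array, with the 3 mutants left of the line and the 3 siblings right of it. Colour is the log2(signal + 16) deviation from that gene's mean over the 6 arrays (red above, blue below). The columns of mutant 1 and mutant 2 are mostly red, and those of mutant 3 and sibling 3 mostly blue.

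Pairs were sorted further by a log2 difference over 0.5, a value chosen after the results were seen. At number 1, 21 of 37 muscle genes exceeded it (56.8%, against 4.79% of all genes). At number 2 it was 13 (35.1%, against 14.2%), and at number 3 it was 1, pvalb1 (2.70%, against 6.21%). Both arrays of number 3 were at background for pvalb1, at 78.3 in the mutant and 38.9 in the sibling, so that difference is no size. Genes over it at numbers 1 and 2 and not at 3 were smyhc1, tpma, neb, desma, klhl41b, unc45b, aldoab, mef2d and txlnba, 9 in all (24.3%, against 1.47%). Another 12 passed it at number 1 alone (32.4%, against 2.72%), among them myl1, tnnc2, tnnt3a, mylz3, ckma, ckmb, pgam2 and atp2a1. At number 2 alone it was tnni2b.1, srl, cav3 and chrna1 (10.8%, against 10.1%). At none of the 3 numbers it was 11 genes (29.7%, against 79.5%). Below -0.5 lay 0, 6 and 0 of the 37 at numbers 1, 2 and 3, against 3.67%, 11.5% and 2.45% of all genes. The slow myosin gene and both assembly genes thus fell in the first set, and 4 of 7 fast filament genes in the second. The sets sort pairs only: for myl1 and tnnc2, of the second set, mutant replicate 2 was also above all siblings. Neither shared probe set was sorted. The myosin heavy chain one, with 2 listed fast genes among its 6, differed by 1.67, 1.34 and -0.34 at numbers 1, 2 and 3. These differences had the form of the first set. The one of tnni2a.4 and tnni2a.2 differed by 0.16, -1.02 and -0.095, over 0.5 at none of the 3 numbers.

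The array also carries probe sets for the 5′ end, middle and 3′ end of actc1b, included as controls of RNA and labelling quality. At the 5′ end the signals were 2760, 819 and 887 in mutants and 987, 1182 and 809 in siblings. Mutant replicate 1 was thus above all others at that end. In the middle they were 9082, 7049 and 4086 in mutants and 4869, 6635 and 5093 in siblings. At the 3′ end they were 12510, 12310 and 9436 in mutants and 9784, 16146 and 10434 in siblings, where mutant replicate 1 lay inside the sibling range. These actc1b probe sets thus gave a difference at number 1 of 1.47 at the 5′ end, 0.90 in the middle and 0.35 at the 3′ end. A second 5′ probe set of actc1b read 4213, 1896 and 2295 in mutants and 2215, 3308 and 1940 in siblings. Its difference at number 1 was 0.92, about that of the middle, so the size of the 5′ difference depended on the probe set. The log2 ratio of the 3′ to the first 5′ probe set was 2.18 on mutant replicate 1 and 3.31 to 3.91 on the other arrays. The like ratio for gapdhs, a glycolytic enzyme gene used as a general control, was 1.73 on mutant replicate 1 and 1.77 to 2.08 on the others. Mutant replicate 1 is the array on which most muscle genes were highest, and the part of transcript integrity in these values was not tested.

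**Figure D4:**
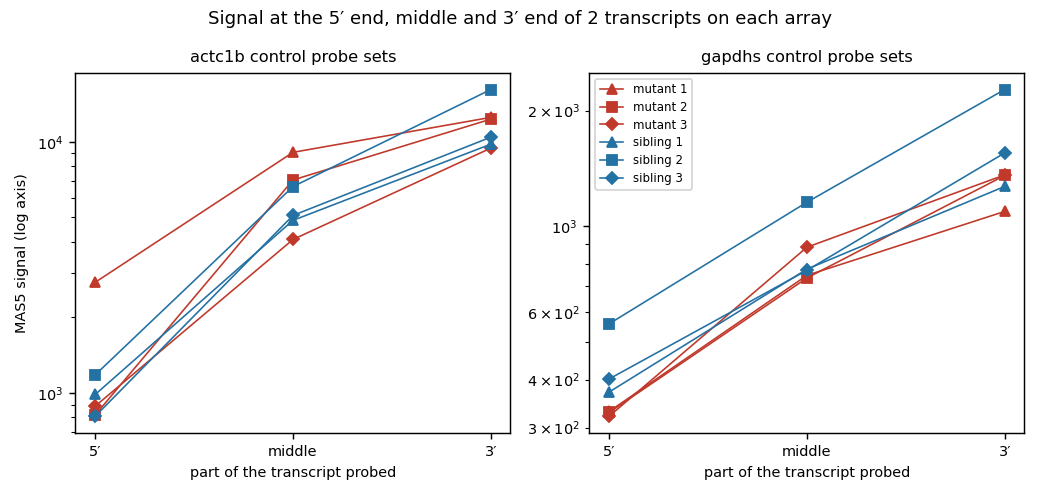
MAS5 signal on a log axis for control probe sets at the 5′ end, middle and 3′ end of actc1b (left) and gapdhs (right), with a line for each array (mutants red, siblings blue). For actc1b mutant 1 stands apart at the 5′ end (2760, against 809 to 1182 on the other arrays) and not at the 3′ end. A second 5′ probe set of actc1b is not drawn. For gapdhs it does not stand above the others.

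Genes listed for skeletal muscle outside the 60 were read in the same way, though not all of them are particular to it. Of these 75 further genes, 28 had a probe set and 22 were tested. Of these 17 were higher and 5 lower, with a median of 0.31, and 0 passed the adjusted test, with 3 higher and 0 lower at an unadjusted p under 0.05, against 1.82% of all genes higher. Mutant replicate 1 was the highest array for 8 of the 22 (36.4%, against 15.1% of all genes). Mutant replicate 2 was the highest for 9, against 1811 of all 7356 genes. The 3 were mb, the oxygen-binding myoglobin gene (178.1, 157.0 and 86.9 in mutants, 75.6, 80.6 and 61.2 in siblings), trim63b, a muscle ubiquitin ligase gene (220, 232 and 176 in mutants, 160.6, 152.4 and 121.1 in siblings), and pdlim7, of the Z-disc (1153, 905 and 707 in mutants, 566, 770 and 625 in siblings). For mb 2 sibling arrays were at background. Medians of the 22 by replicate number were 0.43, 0.32 and 0.019. Of 8 tested myogenic regulators, 6 were higher (median 0.34), including mef2ca (0.90 ± 0.44), myod1, which commits cells to muscle (0.49 ± 0.20), and myf5 (0.51 ± 0.26). At background were 1 mutant array and 2 sibling arrays for myod1, and sibling replicate 2 for mef2ca, so these 2 differences are no exact sizes. In genes listed for presomitic mesoderm, the tissue not yet segmented, 5 of 11 were higher and the median was -0.045. The list is not particular to that tissue, as tbxta was also counted among the notochord genes. The notch ligand gene dlc had the smallest p of the 11 (0.96 ± 0.40) and mespaa the lowest fitted value (-0.42 ± 0.22). For mespaa 2 mutant arrays and 1 sibling array were at background. Another tested dlc probe set, with signals of 252 to 477, differed by less (0.33 ± 0.22).

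Markers of other tissues were read on the same arrays, and none passed the adjusted test (limma). In whole embryos, fewer cells of a type and less RNA per cell cannot be told apart. Of 6 tested heart muscle genes 5 had lower fitted values, 4 of them at an unadjusted p under 0.05, and the median of the 6 was -0.96. Of all tested genes 1.16% were lower and 1.82% higher at that level, and 50.2% had higher fitted values. Summed signals of all 6 were 436 to 1096 in mutants and 733 to 1437 in siblings. These sums include nexn, the 1 gene with a higher fitted value (0.78 ± 0.45). It read 507, 548 and 143 in mutants and 263, 210 and 131 in siblings, a large part of the sums of mutants 1 and 2. By number nexn differed by 0.91, 1.32 and 0.11, where the medians of the heart list were -0.89, -0.66 and -0.95. Whether the nexn signal came from heart muscle was not tested. Of the lower genes, myl7 read 153.8, 127.2 and 58.4 in mutants and 349, 413 and 169.9 in siblings. Mutants were sorted by a reporter under the myl7 promoter. Epidermal genes had lower fitted values in 9 of 10, 1 of them at that level (median -0.12, with summed signals of 62081 to 84114 in mutants and 76730 to 89256 in siblings). Their medians by number were -0.33, -0.17 and 0.10, the opposite order to the muscle genes. The keratin gene krt17 was that 1 (-0.53 ± 0.21). Under quantile normalization krt8 went to -0.043 and krt4 to 0.038. Notochord genes had higher fitted values in 5 of 8, 0 of them at that level (median 0.25, with 0.27, 0.38 and -0.15 by number), their summed signals running from 5784 to 7787 in mutants and 6162 to 6469 in siblings. The heart gene tnnc1a and the notochord list's twhh were at background on all 6 arrays and were not tested. The part of tissue make-up in the muscle values was not tested.

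**Figure D5:**
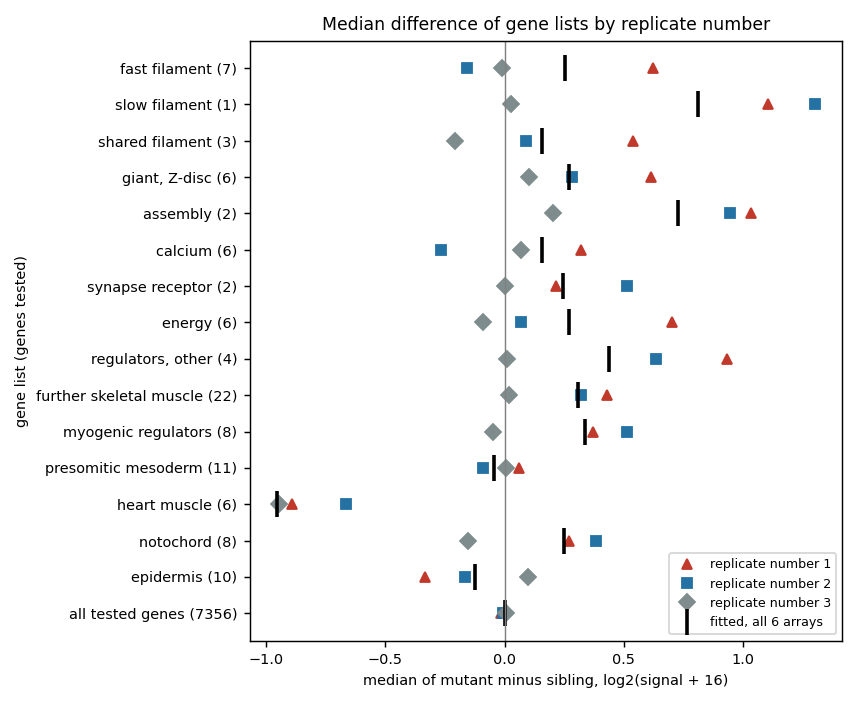
Median mutant minus sibling difference in log2(signal + 16) for each gene list, with the number of genes tested in brackets. Bars are fitted medians over 6 arrays, and triangles, squares and diamonds are medians at replicate numbers 1, 2 and 3. Most muscle lists lie right of 0 at number 1 and near 0 at number 3, while heart muscle lies left of 0 at all 3 numbers.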

How the data were processed

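Each deposited value is a linear intensity, 1 per probe set and array; the submitters' processing notes name MAS5 without a version. The mean after trimming 2% from each end was 500.1 on every array, so arrays were already scaled. Left out of testing were 115 control probe sets and the dimmest 25% of the rest (mean log2 signal under that of about 46.1). The deposited signals were turned into log2(signal + 16), and genotype was fitted by lmFit and a 2-sided eBayes, trend included (R 4.3.3, limma 3.58.1), with Benjamini-Hochberg adjustment and a threshold of 0.05. The script was tested on simulated data. The offset understates changes of dim genes. Genes with several probe sets were read from the one of highest mean. Symbols were updated by gene identifier through the RefSeq gene table of GRCz12tu.

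A genotype was taken as at background where none of its arrays exceeded that array's highest Tag control. A fold against background compares the brighter genotype with the higher of each dim array's own value and that control. The members and lists were chosen with earlier results of these data known, and every member may be named. Values on each array were to be given for the 3 brightest and the 2 of smallest p per role. Those of tnnt3a, mylz3 and mylpfa were added after their values were seen. Of the other lists, no more than the 3 genes with the lowest p are named. The exceptions are the untested tnnc1a and twhh, and nexn and atp2a2a of the heart list.

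Labels number replicates in both genotypes without saying what a number marks, and nothing says the pools were independent beyond the 3 crosses of the design text, so p-values measure the spread between these arrays. Deviations from the genotype means correlated at 0.19, 0.12 and 0.48 between same-numbered arrays. All exceed 0.1, so differences are also described by same-numbered pairs, though mutant replicate 2 correlated more with sibling replicate 1 (0.20). These correlations do not settle what a number marks. The main fit was unpaired: its standard errors and p-values take no account of the replicate number. Alternatives were other offsets, filters and scalings, the replicate block, no trend, and arrays or pairs left out.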

Additional observations from a re-analysis of the deposited data

How the results depend on the processing

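Of the 37 tested muscle genes, 17 kept their direction under all alternatives run and 2 passed the threshold under any of them, both without mutant replicate 3. The share of all probe sets passing in that fit was not counted. With arrays left out singly, the number past the threshold ran from 0 to 2, the number higher from 21 to 33 and the number higher at an unadjusted p under 0.05, a count added after the data were seen, from 1 to 18. That count was 13 with the replicate block, 3 with a common median or with no intensity trend, and 2, 1 and 15 without both arrays of number 1, 2 and 3. Among these alternatives, the share of all genes was counted for the block alone. The block changed no call at the adjusted threshold. The fast median ran from -0.15 to 0.47 and that of calcium, receptor and energy genes from -0.0011 to 0.39 with arrays left out singly. The median of all members was 0.21 with genes at background at their bound. The log2 difference of hand2 ran from -2.65 to -2.36 and missed the threshold without sibling replicate 1 or 2, and at -2.56, -2.37 and -2.60 without both arrays of number 1, 2 and 3, where fewer arrays were tested.

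Under at least 1 alternative 20 of the 37 turned sign, among them tnnt3a, ckma and pgam2 with fitted values above the members' median, and the cause was not tested. With arrays left out singly the log2 differences ran from -0.16 to 0.12 for mylpfa, -0.25 to 0.32 for mylz3, -0.15 to 0.86 for tnnt3a, -0.12 to 0.13 for actc1b, -0.13 to 0.30 for ldb3a, -0.018 to 0.35 for myoz1b, -0.13 to 0.40 for tmod4, -0.018 to 0.40 for atp2a1, -0.078 to 0.42 for pvalb1, -0.38 to 0.24 for pvalb2, -0.33 to 0.017 for pvalb3, -0.070 to 0.29 for musk, -0.024 to 0.41 for ckmb, -0.011 to 0.27 for eno3, -0.20 to 0.58 for rbfox1l and -0.0017 to 0.12 for neo1a. Quantile normalization gave 0.21 for actc1b, -0.029 for ldb3a and 0.038 for the keratin gene krt4, and a common median -0.082 for mylpfa, -0.025 for ldb3a and -0.041 for neo1a. Without both arrays of number 1 the values were -0.23 for mylpfa, -0.28 for mylz3, -0.086 for acta1a, -0.20 for ldb3a, -0.037 for atp2a1, -0.024 for ckma, -0.039 for ckmb, -0.059 for pgam2 and -0.29 for rbfox1l. Without those of number 2 they were 0.093 for actc1b, 0.17 for pvalb2, 0.040 for pvalb3, 0.014 for ak1 and -0.020 for neo1a, and without those of number 3 they were 0.072 for actc1b and -0.15 for pvalb1. With the lowest 50% left out hand2 was not tested, and leaving out smyhc2 could not be run, as it has no probe set of its own. Among genes that kept their sign with arrays left out singly, the lowest or highest value lay over 1.5 times from the fitted one for tnnc2 (0.11 to 0.47), tpma (0.30 to 0.71), ldb3b (0.19 to 0.75), desma (0.39 to 0.86), cav3 (0.12 to 0.47), chrna1 (0.26 to 0.53), mef2d (0.44 to 1.08), smyhc1 (0.53 to 1.36), txlnba (0.45 to 1.45), acta1a (0.017 to 0.39), tnni2a.4 (-0.44 to -0.030) and ak1 (-0.36 to -0.066), besides myl1, unc45b, srl, aldoab, ckma and pgam2. Signal over background limits neb, txlnba, myoz1b, musk, pvalb1, pvalb3 and the second probe set of tnni2a.4, and on 1 array each ldb3a and the brighter probe set of tnni2a.4. Of the genes named outside the members, mb, myod1, mef2ca, mespaa, myl7 and atp2a2a also had arrays at background.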
